A study of Mus with 7 samples.

Results

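The level of 9 genes of cholesterol control was followed through 7 single-cell libraries of mouse macrophages: Insig1, Insig2, Scap, Srebf1, Srebf2, Mylip, Stard4, Npc1 and Npc2. They were chosen by symbol, and each symbol matched 1 of the 31053 genes in the count tables, which gave 9 genes of 31053. By level, Insig1 moved most, from 12.2 CPM (counts scaled to a common library total) in untreated cells to 224 CPM after 1 h of lipopolysaccharide (LPS). Cells that passed the filters had less Insig1 and Stard4 with docosahexaenoic acid (DHA) than with vehicle. The difference exceeded 1.5-fold at each of the 3 hours of LPS. Npc1 was higher in the DHA cells at each hour, and among cells that passed the filters Npc2 stayed close to the vehicle level.

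Cells sense cholesterol in the membrane of the endoplasmic reticulum. When sterol there is plentiful, INSIG proteins hold the escort protein SCAP and its cargo, the SREBP transcription factors, in that membrane. When sterol is scarce, SCAP carries SREBPs to the Golgi, proteases release their active part, and genes of sterol and fatty acid synthesis, including Insig1 itself, are transcribed. Macrophages also take cholesterol up in lipoproteins. NPC1 and NPC2 move it out of the late endosome and lysosome, STARD4 carries sterol between membranes, and MYLIP, also known as IDOL, is a ubiquitin ligase that marks lipoprotein receptors for degradation and is a target of the oxysterol receptors LXR.

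FLMs are self-renewing macrophages grown from the liver of wild-type C57BL/6J mouse fetuses with 30 ng/mL GM-CSF, which all 7 groups received. Con cells were collected untreated from medium with 10% FBS. The other 6 groups spent 24 h in medium with 0.25% FBS and either 25 µM DHA on 8.3 µM BSA (DHA) or 8.3 µM BSA alone (Veh), and were collected then (Veh.LPS.0 and DHA.LPS.0) or after a further 1 h or 4 h with 20 ng/mL LPS (Veh.LPS.1, DHA.LPS.1, Veh.LPS.4 and DHA.LPS.4). FLMs are a culture and not macrophages taken from a tissue, and each condition was 1 library, so differences have no check against replicates, p-values are not given, and every interval covers counting error only. A fit that takes the 3 hours as replicates of the DHA contrast was not run.

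After limits on unique molecular identifiers (UMIs), genes and mitochondrial RNA, 692 to 3073 cells remained per library, with a median of 29369 to 56239 UMIs and a total of 22045775 to 125716982 UMIs. The share of deposited barcodes with at least 20% mitochondrial UMIs was 74.4% to 80.0% in the DHA libraries, against 29.0% to 54.7% in the others. Any 2 libraries shared 0 to 4 of the remaining barcodes. All 9 macrophage markers were detected in every library, their summed level was 5817 to 7089 CPM, and with cells thinned to 20000 UMIs every cell held at least 3 of them. Of the lists for lymphoid, stromal, erythroid and mast cells, hepatocytes and neutrophils, no such thinned cell held 3 or more genes. In each list of 4 genes at least 2 were at 0 in each library, so 3 could not be reached. The neutrophil list of 5 genes could reach 3 only in DHA.LPS.1, where 2 were at 0. Elsewhere this count of cells was fixed beforehand and does not speak to those cell types. In DHA.LPS.4, where cells were fewest, a count of 0 allows a share of up to 0.434% by the limit of 3 counts, and this limits cells with 3 detected markers, not cells of those types. The mast cell and lymphoid lists were at 0 throughout, the hepatocyte list summed to 5.48 to 7.66 CPM and the neutrophil list to 0.0571 to 6.99 CPM. The hepatocyte sum was nearly all Afp. Before thinning, Afp was found in 10.4% of cells in Veh.LPS.1, the lowest share, and 18.4% in Veh.LPS.4, the highest. These libraries also had the lowest and the highest median UMIs, and Afp had 6.62 and 7.54 CPM in them. At equal depth, 92.1% of Veh.LPS.1 cells and 89.5% of Veh.LPS.4 cells held no UMI of the hepatocyte list. The erythroid list summed to 0.103 to 0.285 CPM and the stromal list to at most 0.0454 CPM. The neutrophil list was highest in DHA.LPS.4, with 2.29 CPM in Veh.LPS.4. In DHA.LPS.4 it was S100a8 alone, with the other 4 genes at 0. Before thinning, S100a8 was found in 9.39% of DHA.LPS.4 cells and 5.54% of Veh.LPS.4 cells. Its part in the results was not tested. Since no second cell type could be set apart, the free RNA in the droplets could not be measured, and the shares of cells given here lack that background.

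In the mm10 assembly, Insig1 (ENSMUSG00000045294) lies at chr5:28071412-28078662, Insig2 (ENSMUSG00000003721) at chr1:121304353-121332662, Scap (ENSMUSG00000032485) at chr9:110333288-110384949, Srebf1 (ENSMUSG00000020538) at chr11:60199084-60224186 and Srebf2 (ENSMUSG00000022463) at chr15:82147269-82205379. Mylip (ENSMUSG00000038175) lies at chr13:45389742-45411940, Stard4 (ENSMUSG00000024378) at chr18:33199138-33213862, Npc1 (ENSMUSG00000024413) at chr18:12189694-12236506 and Npc2 (ENSMUSG00000021242) at chr12:84754559-84773112. Counts were made per gene from the 3′ ends of transcripts, so they do not separate isoforms, including the SREBP-1a and SREBP-1c forms of Srebf1, and levels are compared here between libraries and never between genes.

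**Figure D1:**
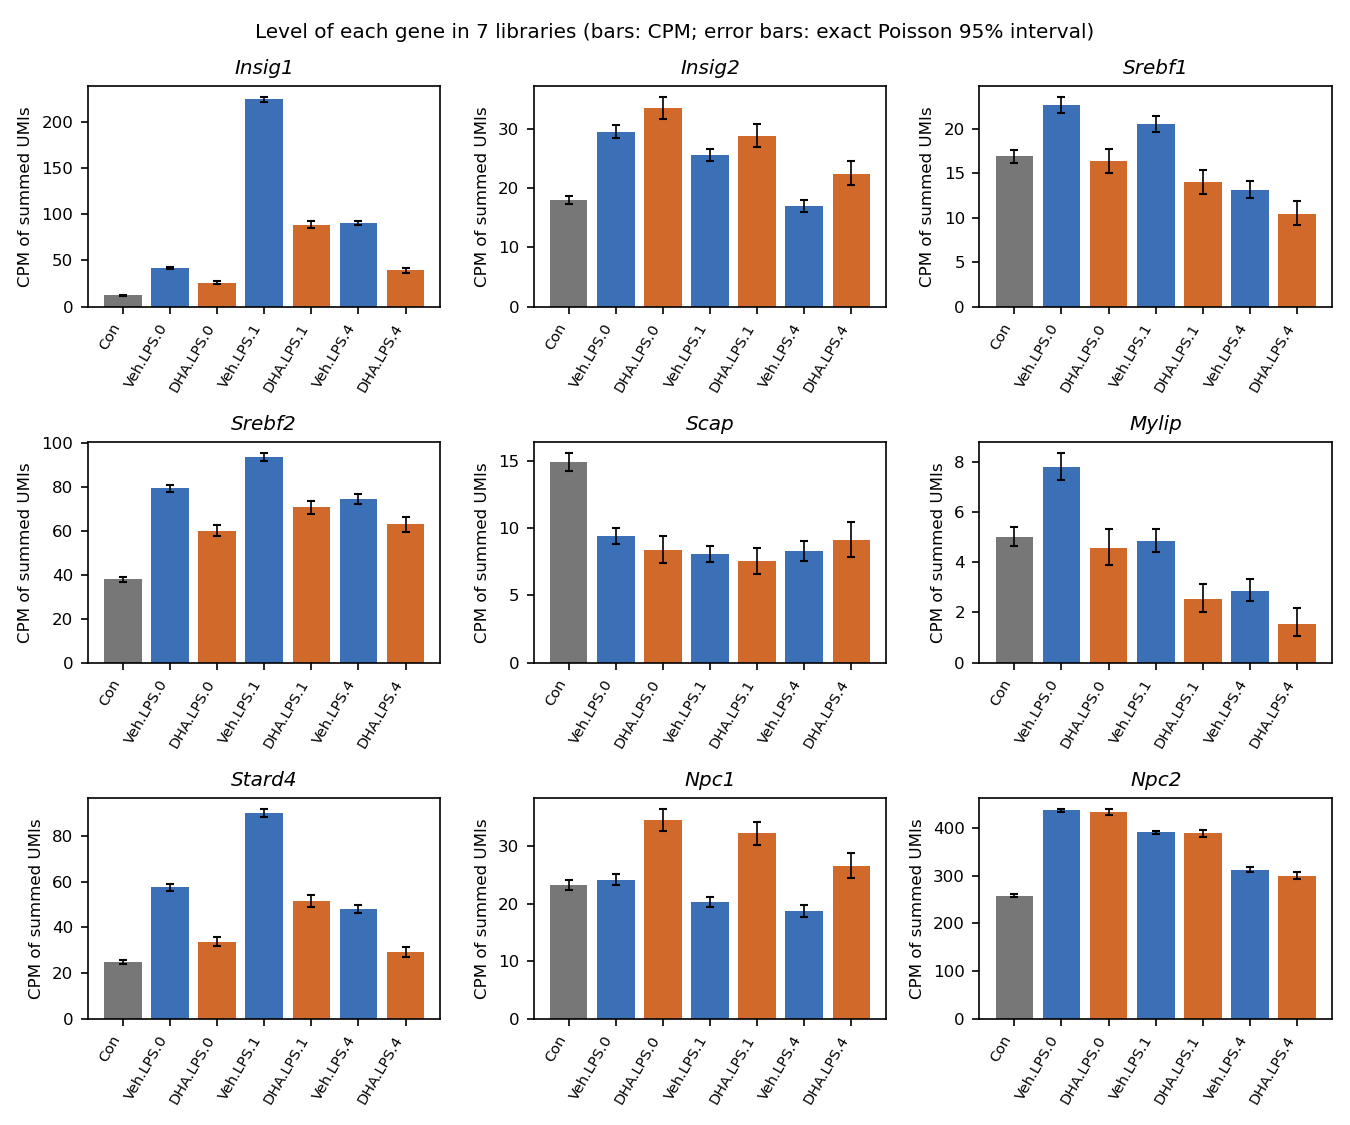
Level of each of the 9 genes in the 7 libraries, in CPM of summed UMIs on a linear axis that starts at 0 and differs between panels, with bars for levels and error bars for exact Poisson 95% intervals (Con in grey, Veh in blue, DHA in orange). Insig1 reached 224 CPM in Veh.LPS.1, Scap was highest in Con at 15.0 CPM, and the DHA bar of Npc1 stood above the Veh bar at all 3 hours.

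To see which of the 9 genes moved with each step of the design, genes were counted when their CPM ratio passed 1.5-fold and at least 25% of the cells held a UMI in 1 of the 2 libraries or in both. With DHA at 0 h of LPS, 3 of the 9 genes were lower than in Veh.LPS.0, namely Insig1, Mylip and Stard4, and 0 were higher, where 0.949% of all 8434 genes so compared were lower and 1.08% higher. With DHA at 1 h, 2 of the 8 genes past the limit on cells were lower, Insig1 and Stard4, and 1 was higher, Npc1, against 1.73% and 1.33% of all genes. With DHA at 4 h, the same limits gave 2 lower of 8, Insig1 and Stard4, and 0 higher, against 2.42% and 2.22% of all genes. Mylip was the gene with a UMI in too few cells at 1 h and 4 h. At 0 h it entered the count only through Veh.LPS.0, where it was highest and 25.5% of cells held it, against 19.3% in DHA.LPS.0. It left this count under 7 of the 11 alternatives, among them SCTransform and leaving out the 5% of cells with the most UMIs, so its place in it carries no weight. Insig1 and Stard4 were thus on the lower side at every hour, where at most 0.522% of all genes had a log2 ratio below that of Insig1 and at most 1.58% one below that of Stard4.

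Without DHA, Veh.LPS.0 differed from Con by these limits in 7 of the 9 genes. Reduced serum, BSA and the further 24 h in culture cannot be told apart in this comparison. The 6 higher ones were Insig1, Insig2, Srebf2, Mylip, Stard4 and Npc2, where 9.31% of all genes were higher, and the 1 lower was Scap, where 7.76% of all genes were lower. In Veh cells, 1 h of LPS left 2 higher, Insig1 and Stard4, and 1 lower, Mylip, against 4.15% and 4.24% of all genes. Mylip again entered through Veh.LPS.0 alone, as it did in each count that used this library, and left this one under 6 alternatives. The same hour in DHA cells left 2 higher, again Insig1 and Stard4, and 0 lower, against 4.66% and 4.97%. With SCTransform, Stard4 was inside the 1.5-fold limit under both supplements, with log2 ratios of 0.56 in Veh and 0.58 in DHA.

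At 4 h of LPS the whole distribution of ratios was shifted. The median log2 ratio of all genes between 4 h and 0 h was -0.36 in Veh cells and -0.29 in DHA cells, and with TMM factors it was 0.068 and 0.0093. In Veh cells, 1 of the 9 genes was higher at 4 h than at 0 h, Insig1, and 3 were lower, Insig2, Srebf1 and Mylip, against 10.2% and 38.3% of all genes. In DHA cells, 1 of 8 was higher, Insig1, and 1 lower, Srebf1, against 9.64% and 33.6%. The share of lower genes was thus close to that of all genes in Veh cells and below it in DHA cells. With TMM factors Mylip alone stayed lower in Veh cells and none did in DHA cells. Relative to the median of all genes, the log2 ratios between 4 h and 0 h in Veh cells were 1.49 for Insig1, -0.43 for Insig2, -0.43 for Srebf1 and -1.08 for Mylip.

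**Figure D2:**
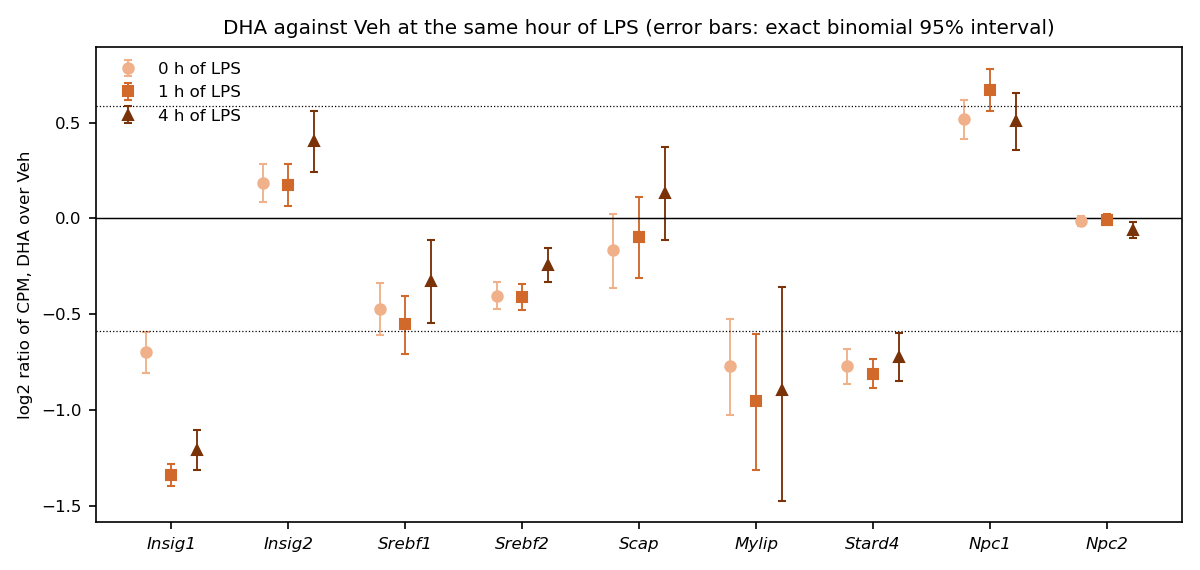
Log2 ratio of CPM in DHA over Veh at 0, 1 and 4 h of LPS (circles, squares and triangles) for the 9 genes, with exact binomial 95% intervals that cover counting error only and dotted lines at 1.5-fold. Insig1 (-0.70, -1.34 and -1.21) and Stard4 (-0.77, -0.81 and -0.72) lay below the lower line at all 3 hours, and Npc1 (0.52, 0.67 and 0.51) lay above 0.

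Insig1, which encodes an anchor of SCAP and is itself a target of the SREBPs, had 12.2 CPM in Con, 41.4 in Veh.LPS.0, 25.5 in DHA.LPS.0, 224 in Veh.LPS.1, 88.7 in DHA.LPS.1, 90.1 in Veh.LPS.4 and 39.1 in DHA.LPS.4. Veh.LPS.1 was thus far above every other library, and each DHA library was below the Veh library of the same hour. There were 2 pairs of neighbours in the order of levels that did not differ beyond counting error, Veh.LPS.0 with DHA.LPS.4 (ratio 1.06, 0.984 to 1.14) and Veh.LPS.4 with DHA.LPS.1 (1.02, 0.971 to 1.06). Insig1 thus made up the same part of the UMIs in DHA cells at 1 h as in Veh cells at 4 h, within counting error. The TMM factors were 1.02 for DHA.LPS.1 and 0.819 for Veh.LPS.4, and 1.10 for Veh.LPS.0 and 0.891 for DHA.LPS.4. Neither match carries over to that scale.

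Insig1 in DHA over Veh was 0.617 (0.573 to 0.663) at 0 h and 0.433 (0.403 to 0.466) at 4 h. LPS for 1 h was accompanied by 5.42-fold more Insig1 RNA in Veh cells (5.24 to 5.60) and 3.47-fold more in DHA cells (3.22 to 3.75). At 4 h the ratio to 0 h was 2.18 (2.09 to 2.27) in Veh cells and 1.53 (1.39 to 1.68) in DHA cells. Insig1 was thus higher with LPS under both supplements, and the counting intervals of the Veh and DHA ratios did not overlap at either hour. Whether the response to LPS differs between the supplements was not tested.

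Insig1 was found in more cells as well as in more copies. With every cell thinned to 20000 UMIs, so that depth was equal, 21.0% of Con cells held an Insig1 UMI, as did 54.6% of Veh.LPS.0 cells, 93.3% of Veh.LPS.1 cells and 76.9% of Veh.LPS.4 cells. In DHA cells the shares were 38.4%, 72.6% and 51.2% at 0, 1 and 4 h. Before thinning, the share in Con was 38.1%. The Veh shares were then 73.8%, 96.5% and 94.5%, and the DHA shares 65.5%, 87.0% and 64.5%.

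Cells rich in Insig1 set Veh.LPS.1 apart. At equal depth, 10 or more Insig1 UMIs were found in 7.39% of Veh.LPS.1 cells (exact binomial 95% interval 6.49 to 8.37, 227 of 3073 cells) and in 0.252% of DHA.LPS.1 cells (0.0305 to 0.906, 2 of 795 cells). Cells with 0 Insig1 UMIs made up 6.67% of Veh.LPS.1 and 27.4% of DHA.LPS.1. The variance over the mean of Insig1 UMIs per cell, which is 1 for counts that vary by sampling alone, was 2.49 in Veh.LPS.1, 1.91 in DHA.LPS.1 and 1.63 in Veh.LPS.4, and 1.10 to 1.30 in the other 4 libraries. The mean Insig1 UMIs per cell were 4.48, 1.87 and 1.81 in Veh.LPS.1, DHA.LPS.1 and Veh.LPS.4, and 0.247 to 0.852 in the other 4. No other member but Npc2 passed a variance over the mean of 1.32 in any library, and Npc2 reached 1.52 in Veh.LPS.4. At equal relative spread this quantity rises with the mean, so it does not rank libraries or genes by spread between cells.

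**Figure D3:**
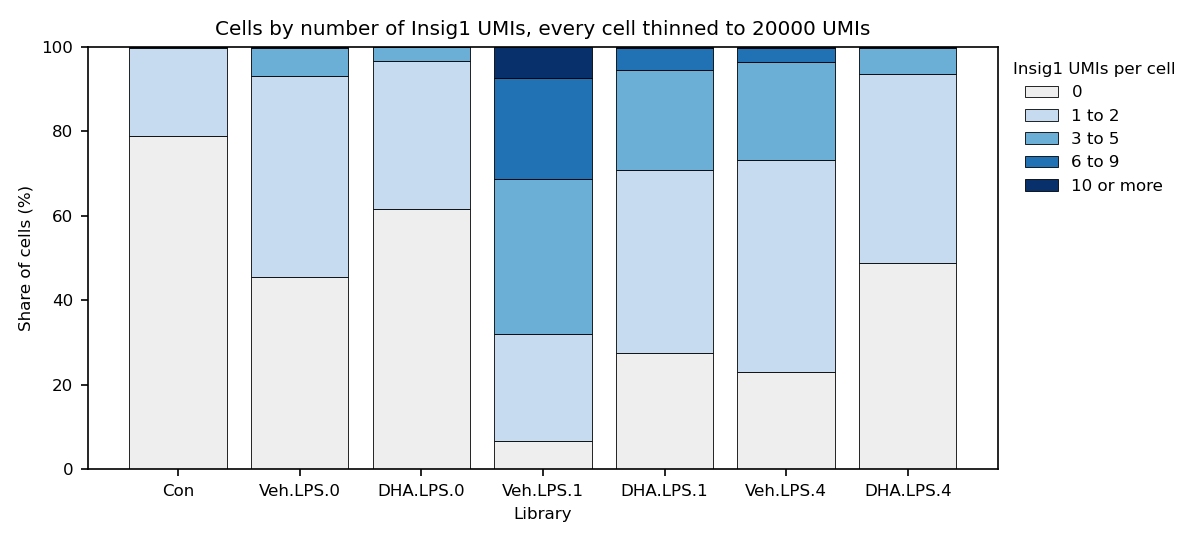
Share of cells (%) in each library by number of Insig1 UMIs per cell, with every cell thinned to 20000 UMIs and darker colours for more UMIs. Cells with no Insig1 UMI took 79.0% of Con and 6.67% of Veh.LPS.1, and cells with 10 or more took 7.39% of Veh.LPS.1 and at most 0.302% of any other library.

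Insig2, the second INSIG gene, had another order of levels. It had 18.03 CPM in Con, 29.6 in Veh.LPS.0, 33.6 in DHA.LPS.0, 25.6 in Veh.LPS.1, 28.9 in DHA.LPS.1, 17.0 in Veh.LPS.4 and 22.5 in DHA.LPS.4. It was highest before LPS and lowest at 4 h in Veh cells, where it did not differ from Con beyond counting error (1.06, 0.982 to 1.14). With TMM factors of 1.07 for Con and 0.819 for Veh.LPS.4, neither the match nor the lowest place carries over to that scale. DHA over Veh was 1.14 (1.06 to 1.22) at 0 h, 1.13 (1.04 to 1.22) at 1 h and 1.32 (1.18 to 1.47) at 4 h, so Insig2 was above 1 at each hour where Insig1 was below 1, and inside the 1.5-fold limit. Without the filter on barcodes, the log2 ratio at 0 h was -0.09 in place of 0.18.

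Scap, which encodes the SREBP escort, had 15.0 CPM in Con, 9.42 in Veh.LPS.0, 8.39 in DHA.LPS.0, 8.07 in Veh.LPS.1, 7.54 in DHA.LPS.1, 8.31 in Veh.LPS.4 and 9.12 in DHA.LPS.4. Con was above the 6 libraries in reduced serum, and no 2 neighbours in the order of those 6 differed beyond counting error. Against Veh.LPS.0, Scap was at 0.857 in Veh.LPS.1 (0.778 to 0.944) and at 0.883 in Veh.LPS.4 (0.789 to 0.986), and with TMM factors the latter was above 1, with a log2 ratio of 0.25. Veh.LPS.0 had 0.629 times the Con level (0.581 to 0.680). The intervals of DHA against Veh for Scap covered 1 at all 3 hours (0.779 to 1.02, 0.805 to 1.08 and 0.926 to 1.30).

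The genes of the SREBP factors themselves were lower with DHA by less than 1.5-fold. Srebf2, whose product chiefly drives sterol synthesis, had 37.9 CPM in Con, 79.2 in Veh.LPS.0, 59.9 in DHA.LPS.0, 93.6 in Veh.LPS.1, 70.5 in DHA.LPS.1, 74.4 in Veh.LPS.4 and 62.8 in DHA.LPS.4. All 3 Veh libraries were above all 3 DHA libraries, and Con was below them all. In DHA over Veh, Srebf2 was 0.756 (0.720 to 0.794), 0.754 (0.719 to 0.790) and 0.845 (0.795 to 0.898) at 0, 1 and 4 h.

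Srebf1, whose products drive fatty acid as well as sterol synthesis, had 16.9 CPM in Con, 22.7 in Veh.LPS.0, 16.4 in DHA.LPS.0, 20.5 in Veh.LPS.1, 13.99 in DHA.LPS.1, 13.1 in Veh.LPS.4 and 10.5 in DHA.LPS.4. It was lower with more hours of LPS under both supplements, and Con did not differ from DHA.LPS.0 beyond counting error. At 4 h against 0 h its log2 ratio was -0.79 in Veh and -0.65 in DHA, and -0.36 and -0.35 with TMM factors. The ratio of DHA to Veh was 0.722 (0.657 to 0.792), 0.682 (0.614 to 0.756) and 0.797 (0.685 to 0.925) at 0, 1 and 4 h.

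The DHA ratios of the SREBP genes depended on which barcodes were counted. With all deposited barcodes, the log2 ratio of Srebf2 was 0.0034, -0.027 and 0.028 at the 3 hours in place of -0.40, -0.41 and -0.24, and that of Srebf1 was -0.11, -0.20 and 0.069 in place of -0.47, -0.55 and -0.33. Srebf2 RNA was a larger part of the UMIs in barcodes with at least 20% mitochondrial UMIs, which were more frequent in the DHA libraries. Within those barcodes alone, Srebf2 had 162, 149 and 136 CPM in Veh and 125, 131 and 110 CPM in DHA at 0, 1 and 4 h. The DHA level was thus below the Veh level in either kind of barcode taken alone. Insig1 had 34.4, 167 and 76.3 CPM in Veh and 22.2, 80.0 and 28.6 CPM in DHA in the same high-mitochondrial barcodes. Stard4 had 28.0, 60.3 and 31.1 CPM in Veh and 20.0, 41.1 and 16.4 CPM in DHA there. It was thus lower with DHA at each hour, but inside the 1.5-fold limit at 0 h and 1 h.

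Stard4, the sterol carrier, spanned a narrower range than Insig1. It had 24.7 CPM in Con, 57.6 in Veh.LPS.0, 33.8 in DHA.LPS.0, 90.2 in Veh.LPS.1, 51.5 in DHA.LPS.1, 48.1 in Veh.LPS.4 and 29.2 in DHA.LPS.4. Each DHA library was below its Veh library, and every pair of neighbours in the order of levels differed beyond counting error. Stard4 in DHA over Veh was 0.586 (0.550 to 0.624), 0.571 (0.541 to 0.602) and 0.606 (0.555 to 0.661) at 0, 1 and 4 h.

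At 1 h of LPS, Stard4 had 1.57 times its 0 h level in Veh cells (1.51 to 1.62) and 1.53 times in DHA cells (1.41 to 1.65). At 4 h the ratios were 0.836 (0.798 to 0.874) and 0.864 (0.783 to 0.951). With TMM factors both lay above 1 at 4 h, with log2 ratios of 0.17 in Veh and 0.088 in DHA in place of -0.26 and -0.21. The 2 supplements gave Stard4 ratios to 0 h with overlapping counting intervals at both hours, unlike those of Insig1. At equal depth, 38.1% of Con cells held a Stard4 UMI, with 65.4%, 79.4% and 59.7% of Veh cells and 45.8%, 58.0% and 39.7% of DHA cells at 0, 1 and 4 h. The unthinned shares were 61.3%, then 84.4%, 87.5% and 84.8%, and 70.1%, 77.4% and 54.3%.

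Mylip, the LXR target that lowers lipoprotein receptors, was sparse. It had 5.01 CPM in Con, 7.80 in Veh.LPS.0, 4.57 in DHA.LPS.0, 4.86 in Veh.LPS.1, 2.51 in DHA.LPS.1, 2.87 in Veh.LPS.4 and 1.54 in DHA.LPS.4. It was lower with DHA at each hour and lower with each hour of LPS under either supplement. The ratio of DHA to Veh was 0.586 (0.491 to 0.696) at 0 h, 0.518 (0.403 to 0.658) at 1 h and 0.538 (0.361 to 0.781) at 4 h, where the last rests on 34 UMIs in DHA.LPS.4 and 168 in Veh.LPS.4.

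The lysosomal cholesterol exporters differed from each other. Npc1, the membrane protein of the pair, had 23.2 CPM in Con, 24.2 in Veh.LPS.0, 34.6 in DHA.LPS.0, 20.3 in Veh.LPS.1, 32.2 in DHA.LPS.1, 18.7 in Veh.LPS.4 and 26.5 in DHA.LPS.4. All 3 DHA libraries were above Con and above all 3 Veh libraries. The ratio of DHA to Veh was 1.43 (1.33 to 1.53), 1.59 (1.47 to 1.72) and 1.42 (1.28 to 1.57) at 0, 1 and 4 h, and ranked above those of 98.5%, 99.1% and 96.4% of all genes. In the barcodes with at least 20% mitochondrial UMIs, the Npc1 levels lay closer at 0 h and 4 h, at 59.8, 42.1 and 41.2 CPM in Veh and 63.0, 60.8 and 47.4 CPM in DHA.

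Npc2, the soluble protein that hands cholesterol to NPC1, had 258 CPM in Con, 437 in Veh.LPS.0, 434 in DHA.LPS.0, 391 in Veh.LPS.1, 389 in DHA.LPS.1, 313 in Veh.LPS.4 and 300.1 in DHA.LPS.4. Npc2 was higher in the libraries in reduced serum than in Con and, as a part of the UMIs, lower with more hours of LPS. At 4 h against 0 h its log2 ratio was -0.48 in Veh and -0.53 in DHA, where all genes had medians of -0.36 and -0.29. With TMM factors it was -0.051 and -0.23. Its ratio of DHA to Veh was 0.992 (0.974 to 1.01) at 0 h, 0.995 (0.975 to 1.02) at 1 h and 0.959 (0.932 to 0.987) at 4 h. With TMM factors the log2 ratio at 4 h was -0.18. With all deposited barcodes, the log2 ratio of DHA to Veh was 0.034, 0.27 and 0.22 at 0, 1 and 4 h. In the high-mitochondrial barcodes, Npc2 had 594, 640 and 328 CPM in Veh and 505, 639 and 412 CPM in DHA. At equal depth, 99.2% or more of the cells in any library held an Npc2 UMI.

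**Figure D4:**
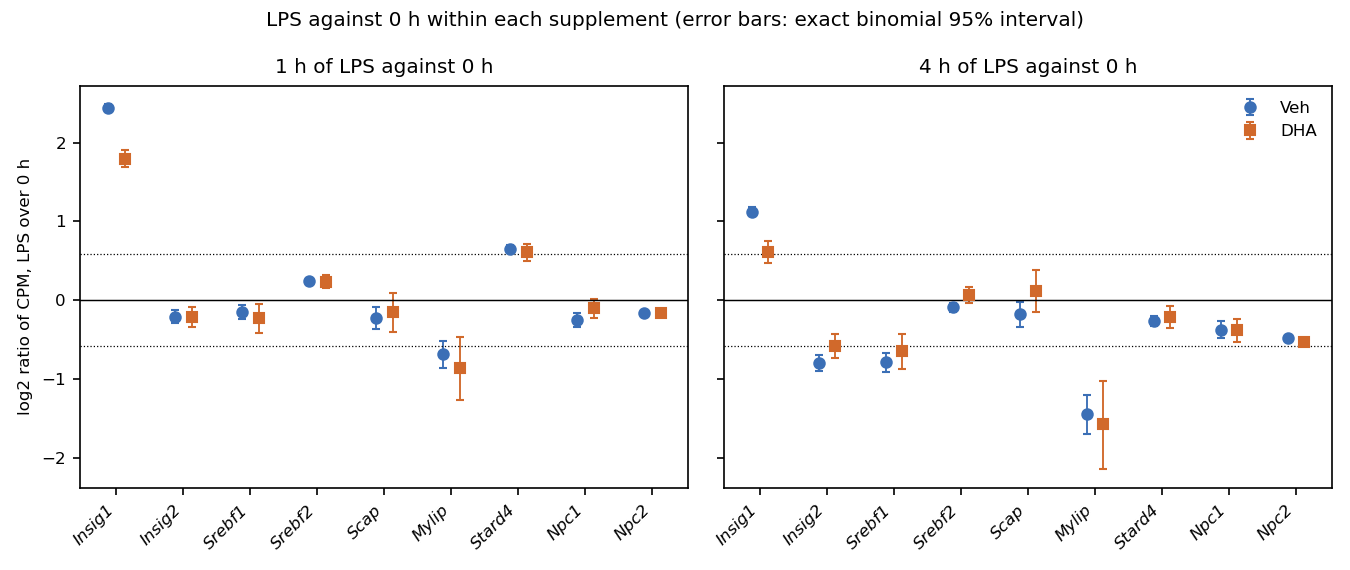
Log2 ratio of CPM at 1 h (left) and 4 h (right) of LPS over 0 h in Veh (blue circles) and DHA cells (orange squares), with exact binomial 95% intervals and dotted lines at 1.5-fold. Insig1 was at 2.44 in Veh and 1.80 in DHA at 1 h, and at 1.12 and 0.61 at 4 h, while Stard4 was at 0.65 and 0.61 at 1 h.

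The same contrasts were then read in other genes of the pathway. Of 19 enzymes of sterol synthesis, 18 had a UMI in enough cells, and 11, 16 and 16 of them were lower with DHA by more than 1.5-fold at 0, 1 and 4 h, with 0 higher. Their median log2 ratio was -0.62, -0.87 and -0.91, against -0.05, -0.05 and 0.08 for all genes. By the same limits, 0.949%, 1.73% and 2.42% of all genes were lower and 1.08%, 1.33% and 2.22% higher. Hmgcs1, which makes HMG-CoA, had 412 CPM in Veh.LPS.1 and 153 in DHA.LPS.1, and Pmvk, phosphomevalonate kinase, had 130 and 49.2 CPM. The smallest differences at 1 h were those of Sqle, squalene epoxidase, with 109 and 73.5 CPM, and Ebp, with 72.4 and 58.2 CPM.

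Npc1 was higher with DHA at each hour, so the 9 genes did not move as 1 block with these enzymes. The summed level of the 19 enzymes was 573 CPM in Con. At 0, 1 and 4 h it was 2061, 2782 and 2175 CPM in Veh, and 1346, 1448 and 1057 CPM in DHA. Between DHA.LPS.1 and DHA.LPS.0, 2 of 18 enzymes were higher by more than 1.5-fold, Hmgcs1 and Cyp51, against 4.66% of all genes. The enzymes' median log2 ratio was -0.02, where all genes had -0.12 and Insig1 had 1.80. Vehicle cells also had a larger Insig1 ratio than the enzymes' median after 1 h of LPS, at 2.44 and 0.16. In these cells 5 of 18 enzymes were higher, against 4.15% of all genes, whose median was -0.10.

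Of 16 genes that act on SREBP processing and turnover, 14 or 15 had a UMI in enough cells at each hour. None passed 1.5-fold between DHA and Veh at any of the 3 hours, and their medians were -0.0036, -0.045 and 0.025. Of all genes, at most 2.42% were lower and at most 2.22% higher by this limit, both at 4 h. With so few of all genes past the limit, finding none in a list of this size does not set these genes apart. The lowest at 1 h were Nfyc, a subunit of the NF-Y cofactor, with 15.1 CPM in DHA and 18.7 in Veh, and Syvn1, with 8.14 and 9.29 CPM. The highest were Erlin1, with 30.5 CPM in DHA and 22.6 in Veh, and Sec23a, a coat protein of vesicles that leave the endoplasmic reticulum, with 10.1 and 9.05 CPM.

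In the fatty acid synthesis list, 5, 6 and 7 of 10 genes were lower with DHA at 0, 1 and 4 h and 0 were higher. Of all genes, 0.949%, 1.73% and 2.42% were lower and 1.08%, 1.33% and 2.22% higher. The list's median log2 ratio was -0.57, -0.75 and -0.71. Scd1, a stearoyl-CoA desaturase, had 37.7 CPM in Veh.LPS.1 and 4.43 in DHA.LPS.1, and Scd2 had 275 and 101 CPM. Elovl5 had 59.7 and 45.8 CPM, and Me1, malic enzyme, was above 1 with 18.3 CPM in Veh.LPS.1 and 23.2 in DHA.LPS.1.

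Among LXR and efflux genes, the group to which Mylip's regulation belongs, 5 of 8 had enough cells at 0 h and 1 h, and 2 at 4 h. At 0 h, Smpdl3a and Pltp were higher and Abcg1 lower. At 1 h Smpdl3a was higher and 0 were lower, and at 4 h 0 passed the limit. Of all genes, 1.08% and 1.33% were higher and 0.949% and 1.73% lower at 0 h and 1 h. The list's median log2 ratio was 0.044, -0.0016 and 0.026 at 0, 1 and 4 h, the last over 2 genes. Abcg1, a cholesterol exporter, had 19.1, 12.4 and 5.79 CPM in Veh and 12.1, 8.86 and 2.90 CPM in DHA at 0, 1 and 4 h. Smpdl3a had 9.64, 8.95 and 4.66 CPM in Veh and 17.4, 14.7 and 8.98 CPM in DHA, and Pltp, a phospholipid transfer protein, had 10.1 CPM in Veh.LPS.1 and 12.8 in DHA.LPS.1. Lpcat3 had 41.7 CPM in Veh.LPS.1 and 34.0 in DHA.LPS.1. The LXR-linked genes thus included some on either side of 1, with Abcg1 on the side of Mylip.

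In the list of other sterol receptors and transport genes, 2 of 16 were higher with DHA at 0 h. At 1 h and at 4 h, 3 of 15 were higher, and 0 were lower at any hour. Of all genes, 1.08%, 1.33% and 2.22% were higher and 0.949%, 1.73% and 2.42% lower at 0, 1 and 4 h. The list's median log2 ratio was 0.14, 0.21 and 0.22, against -0.05, -0.05 and 0.08 for all genes. Lipa, the lysosomal acid lipase that frees cholesterol from its esters upstream of NPC1 and NPC2, had 97.9, 85.9 and 56.2 CPM in Veh and 178, 160 and 93.2 CPM in DHA at 0, 1 and 4 h. Cd36, a scavenger receptor, had 27.5 CPM in Veh.LPS.1 and 53.0 in DHA.LPS.1. Tmem97, a sterol-regulated protein that binds NPC1, had 74.8 and 53.3 CPM, and Scarb1, a lipoprotein receptor, had 44.0 and 36.3 CPM. Npc1 and Lipa were thus on the same side of 1 at each hour, and Npc2 was near 1.

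Cells within a library were then compared with each other at equal depth, as a description, since the cells of 1 library share it. Within Veh.LPS.1, the Spearman correlation over 3073 cells between Insig1 UMIs and the summed UMIs of the sterol enzymes was 0.49. It was 0.43 in DHA.LPS.1, 0.36 in Veh.LPS.4, 0.22 to 0.25 in Veh.LPS.0, DHA.LPS.0 and DHA.LPS.4, and 0.08 in Con. For Stard4 it was 0.11 to 0.37 and for Srebf2 0.10 to 0.33 over the 7 libraries, and for Insig2, Srebf1, Scap, Mylip and Npc2 it was -0.10 to 0.087. For Npc1 it was -0.15, -0.14 and -0.11 in the DHA libraries and -0.08 to 0.01 in the others. Sparse counts lower such correlations, and mean Insig1 UMIs per cell ran from 4.48 in Veh.LPS.1 to 0.247 in Con. The Insig1 values thus do not rank the libraries by how closely Insig1 went with the enzymes.

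In quartiles of cells ranked by sterol enzyme UMIs within a library, the mean of Insig1 in Veh.LPS.1 was 2.37 UMIs per cell in the lowest quartile and 6.47 in the highest. In DHA.LPS.1 the means were 0.824 and 2.99. Npc1 had the opposite order in DHA.LPS.0, with 0.977 UMIs per cell in the lowest quartile and 0.540 in the highest, and in DHA.LPS.1, with 0.940 and 0.485. The Veh libraries had the same order in Npc1, with 0.591 and 0.418 in Veh.LPS.0, 0.495 and 0.384 in Veh.LPS.1 and 0.550 and 0.347 in Veh.LPS.4, and in Con both were 0.44. The highest quartile thus had more Insig1 than the lowest in all 7 libraries, and less Npc1 in the 6 libraries other than Con. From the lowest to the highest quartile, Npc1 had 0.495, 0.371, 0.341 and 0.384 in Veh.LPS.1. In Veh.LPS.4 it had 0.550, 0.306, 0.423 and 0.347. In these 2 libraries the lowest quartile stood apart, without a steady fall over the others. The Spearman correlations of Insig1 and Npc1 with the summed UMIs of the proliferation genes Mki67 and Top2a in DHA.LPS.0 were 0.12 and -0.11. In the same library, Npc1 had 63.0 CPM in the high-mitochondrial barcodes and 34.6 CPM in the kept cells. The parts of cell cycle and of mitochondrial share in the quartile values were not tested.

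**Figure D5:**
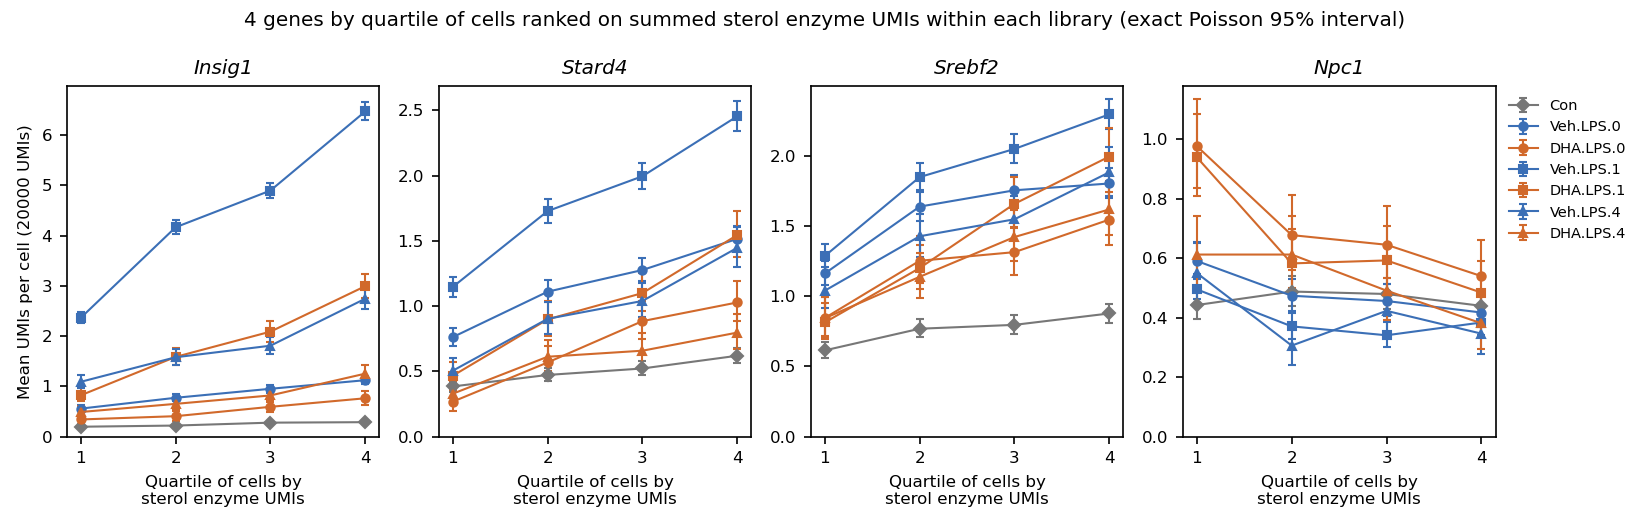
Mean UMIs per cell of Insig1, Stard4, Srebf2 and Npc1 in quartiles of cells ranked by summed sterol enzyme UMIs within each library (1 is the lowest), with cells thinned to 20000 UMIs and exact Poisson 95% intervals. Insig1 in Veh.LPS.1 went from 2.37 to 6.47 from the lowest to the highest quartile, and Npc1 in DHA.LPS.0 from 0.977 to 0.540.

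The summed level of Mki67 and Top2a was 1189 CPM in Con. At 0, 1 and 4 h it was 920.1, 937 and 201 CPM in Veh, and 673, 609 and 317 CPM in DHA. The DHA cells were thus below Veh cells at 0 h and 1 h and above them at 4 h. In cells with no UMI of either gene at equal depth, 133 to 502 per library, the log2 ratio of DHA to Veh for Insig1 was -0.58 at 0 h and -1.37 at 1 h, and for Stard4 at 0 h it was -0.64. Insig1 at 0 h was then just inside the 1.5-fold limit. At 1 h and at 4 h, Insig1 and Stard4 were lower with DHA and Npc1 higher by more than 1.5-fold in these cells. Of all genes in them, 118 of 7529 were lower and 155 higher at 1 h. At 4 h, 234 of 7353 were lower and 197 higher. The log2 ratio of Npc1 at 4 h was 0.74 in place of 0.51.

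Across the 7 libraries, the genes whose levels were most like each member were found by Pearson's r of log2 CPM among 6850 genes, as a description over 7 points that share their conditions. For Insig1, the third to the fifth in that order were Hmgcs1 (0.97), 2810474O19Rik (0.95) and Rasgef1b (0.95). For Srebf2 the highest 3 were Msmo1, Pank3 and Sqle (each 0.97), of which Msmo1 and Sqle are sterol synthesis enzymes. For Stard4 the highest 3 were Pank3 (0.96), Hmgcs1 (0.95) and Nop53 (0.94).

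The genes most like the other members were no sterol enzymes. They were Echdc3, Uap1l1 and the lysosomal peptidase gene Tpp1 for Insig2, Gng2, Cetn2 and Timm17b for Srebf1, Tomm5, Nsun2 and Eif5b for Scap, S100a4, Cetn2 and Tcf20 for Mylip, Higd1a, Tmem154 and Coq3 for Npc1, and Gnas, Mpnd and Rras for Npc2, with r from 0.96 to 0.99. Among the members themselves, r was 0.89 between Insig1 and Stard4, 0.88 between Insig1 and Srebf2, 0.90 between Srebf2 and Stard4 and 0.96 between Srebf1 and Mylip. Insig1 and Insig2 had an r of 0.10 and Insig1 and Npc1 one of -0.36.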

How the data were processed

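FLMs were profiled with droplet single-cell RNA-seq (10x 3′ v3 chemistry). The authors deposited unnormalized UMI counts per gene and barcode for each library, made with Cell Ranger. The submitters' notes give version 3.1.0 and mm10, while the version in the paper's methods is another. Gene positions come from RefSeq's GRCm38.p6 annotation, matched by symbol.

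Cells with over 20000 UMIs, at least 2000 genes and under 20% mitochondrial UMIs were kept, the limits of the study. The counts of these cells were added up for each gene within a library and scaled to CPM. Levels have exact Poisson, and shares and ratios exact binomial (Clopper-Pearson), 95% intervals. They treat UMIs as independent and cover counting error only. A ratio counted when past 1.5-fold if 25% of cells or more held a UMI in 1 of the libraries compared. For comparisons of cells, each was thinned to 20000 UMIs (seed 1). No doublet caller was run, and an alternative left out the 5% of cells with the most UMIs in each library.

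The members and lists were chosen with earlier results of these data known. All 9 members are named in every comparison. Of each other list the 2 highest and the 2 lowest ratios of DHA to Veh at 1 h are named, and further genes of a list are named where few passed the limit, after their values were seen. For each member the 3 genes (5 for Insig1) with the highest correlation of log2(CPM + 1) are named, among genes that 50% of cells or more held in 1 library. The 2 genes that ranked highest for Insig1 are not reported here. Alternatives used TMM factors (edgeR 4.0.16 in R 4.3.3), SCTransform (sctransform 0.4.2, Seurat 5.3.0), other filters and other limits. The rest was computed in Python 3.11.15 with numpy 2.4.6, scipy 1.17.1 and pandas 2.3.3. The ratio step was tested on simulated Poisson counts, which leave out spread between cells. Thinning was checked on the real counts, as the members' mean thinned UMIs against those from their shares of UMIs.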

Additional observations from a re-analysis of the deposited data

Results flagged for a closer look

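For 2 genes, effects of the same contrast pointed in opposite directions in 2 groups, and with 1 library per condition the difference was not tested. The log2 ratio of Srebf2 between 4 h and 0 h of LPS was 0.070 in DHA cells and -0.091 in Veh cells. Its counting interval in DHA cells covered 0. With TMM factors the ratio was 0.37 in DHA cells and 0.34 in Veh cells. The log2 ratio of Scap between 4 h and 0 h was 0.12 in DHA cells, with a counting interval that covered 0, and -0.18 in Veh cells, and with TMM factors it was 0.42 and 0.25, so neither gene had opposite directions on that scale. The log2 ratio of Scap between DHA and Veh was 0.13 at 4 h, against -0.17 at 0 h and -0.097 at 1 h, and the counting intervals of all 3 covered 0.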

How the results depend on the processing

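The labels give no replicate numbers to pair, and each condition was 1 library, so none could be left out of a condition. DHA and Veh were compared hour by hour as ratios, and a fit across the 3 hours was not run. Of 88 counts of members past the limits under 11 alternatives, 74 were within 1.5 times the reported count. TMM factors gave 2 in place of 4 for Veh at 4 h against 0 h and 1 in place of 2 for DHA at the same hours. The last count was 0 with all barcodes and 4 with SCTransform, which also gave 1 in place of 2 between DHA.LPS.1 and DHA.LPS.0. In cells without Mki67 or Top2a UMIs, 1 member was left between DHA.LPS.0 and Veh.LPS.0. A 2-fold limit gave 3 for Veh.LPS.0 against Con, 1 and 2 for Veh at 1 h and 4 h against 0 h, 1 and 0 for DHA at the same hours, and 0, 1 and 1 for DHA against Veh at 0, 1 and 4 h. Of 576 log2 ratios under 8 alternatives, 544 kept their sign, and no ratio past the limits reversed. For Insig1, the log2 ratio of DHA to Veh ranged from -0.75 to -0.58 at 0 h, -1.37 to -1.24 at 1 h and -1.40 to -1.20 at 4 h. For Stard4 the 3 ranges were -0.98 to -0.64, -0.89 to -0.74 and -1.03 to -0.71, and for Npc1 0.49 to 0.76, 0.67 to 1.02 and 0.25 to 0.74. The low ends for Stard4 came from counting all barcodes, including the high-mitochondrial ones, where Stard4 was lower. The high ends for Npc1 at 0 h and 1 h came from the same count, and Npc1 was higher in the high-mitochondrial barcodes. With TMM factors, 50.6% of the genes past the limit for Veh at 4 h against 0 h were higher, in place of 21.0%, and 46.5% for DHA, in place of 22.2%. At 1 h against 0 h the shares were 61.3% in place of 49.5% in Veh and 63.9% in place of 48.4% in DHA, and for DHA.LPS.4 against Veh.LPS.4 26.8% in place of 47.8%. SCTransform gave 79.4% in place of 53.2%, 79.6% in place of 43.5% and 17.9% in place of 47.8% for DHA against Veh at 0, 1 and 4 h, and 24.5% and 30.6% for 1 h against 0 h in Veh and DHA. With all barcodes, the shares for DHA against Veh were 23.8%, 18.4% and 33.9% at 0, 1 and 4 h. The search for promoter motifs was not run, since no promoter sequence was at hand. Depth limits Mylip most, with 34 UMIs in DHA.LPS.4.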
